A study of Arabidopsis thaliana with 12 samples.

Results

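The genes described here are the protein-coding genes of Arabidopsis thaliana whose start lies close to a centromere, chosen by position alone: starts between 12.5 and 17.5 Mb on chromosome 1, 1.5 and 6.0 Mb on chromosome 2, 11.0 and 16.0 Mb on chromosome 3, 2.0 and 5.5 Mb on chromosome 4, and 9.5 and 14.5 Mb on chromosome 5. These windows held 1809 of the 27444 protein-coding genes on the nuclear chromosomes, with 415, 430, 326, 240 and 398 genes on chromosomes 1 to 5, and the other 25635 served as the comparison. RNA-seq had been made from whole seedlings grown for 10 days on 1/2 MS medium with 1% sucrose at 22 °C, in 16 h of light and 8 h of dark, with 2 libraries in each of 6 groups. V1200R/cc lines 9 and 15 carry a genomic CMT2 fragment under its own promoter with the V1200R substitution, a C-terminal FLAG tag and a fluorescent seed marker (OLE1 fused to RFP under the OLE1 promoter), and CMT2/cc lines 1 and 19 carry the same fragment without the substitution. All 4 lines are in the cc background, the cmt2 cmt3 double mutant with the T-DNA alleles cmt2-7 and cmt3-11, which was sequenced as the cc group, and Col-0 is the wild type from which all of them derive. Each line is 1 transformation line, and nothing in the sources used here says that the 2 libraries of a group came from separate cultures, so p-values measure only the spread between these libraries. Levels are TPM as the authors deposited them, a measure scaled for gene length and library depth that sums to 1000000 in each library.

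Genes near the centromeres of Arabidopsis can sit in pericentromeric heterochromatin, where they are scattered among transposable elements (TEs). Whether each window gene does was not tested, since the windows were set by position alone. In plants, cytosines in the CHG context (H is A, C or T) are methylated by CMT3 and those in the CHH context at long heterochromatic elements by CMT2, and both enzymes are drawn to nucleosomes that carry methylated lysine 9 of histone H3. This methylation is known for keeping TEs silent, and a gene inside or beside a TE can be silenced with it. The question behind the comparison was how the transcripts changed when both enzymes were mutated, and again when CMT2 with or without V1200R was put back.

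The label check came first. CMT2 (AT4G19020) had 1.70 and 1.99 TPM in the libraries labelled cc, against 15 and 13.3 TPM in Col-0, a log2 fold change of -2.64 ± 0.09 (SE, limma adjusted p = 3.49e-07), and it stood between 79.6 and 159 TPM in the 8 libraries of the 4 lines. By line, it had 112 and 127 TPM in V1200R/cc line 9 and 146 and 159 TPM in line 15. In CMT2/cc it had 113.5 and 123 TPM in line 1 and 79.6 and 80.8 TPM in line 19. CMT3 (AT1G69770) had 16.4 and 14.0 TPM in the libraries labelled cc, against 12.9 and 11.5 TPM in Col-0 (log2 fold change 0.31 ± 0.13, limma adjusted p = 0.238), and 4.72 to 7.02 TPM in the lines. A T-DNA insertion can leave transcript from the rest of a gene, so the CMT3 level does not check that allele, and "cc" below means the libraries labelled so. The leaf markers RBCS1A, LHCB1.1 and LHCB1.3 summed to between 36300 and 42600 TPM in every library, and the flower markers AG and AP3 to at most 0.40 TPM. In whole seedlings, fewer cells that express a gene and less RNA per cell cannot be told apart.

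The stretch of 250 bases just before the annotated start is printed for the 4 genes with the largest fitted rise in cc among those called higher in cc against Col-0 and lower in both V1200R/cc lines against cc, because their levels carry the main patterns below. The sequences come from the RefSeq TAIR10.1 genome, whose start and end matched those in the deposited files for all 1809 genes, and they are written along the strand of the gene. Capitals mark CAG, CTG, CCG and CGG, which are the CHG context read on one strand or the other. CCG and CGG overlap where CCGG occurs.
QQS (AT3G30720), chr3:12348797-12349046, plus strand: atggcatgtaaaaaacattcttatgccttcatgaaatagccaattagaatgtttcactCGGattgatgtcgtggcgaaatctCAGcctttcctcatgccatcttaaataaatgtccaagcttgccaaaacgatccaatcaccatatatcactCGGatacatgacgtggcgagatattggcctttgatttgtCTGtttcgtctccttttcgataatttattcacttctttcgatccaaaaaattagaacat
AT5G28235, chr5:10203336-10203585, minus strand: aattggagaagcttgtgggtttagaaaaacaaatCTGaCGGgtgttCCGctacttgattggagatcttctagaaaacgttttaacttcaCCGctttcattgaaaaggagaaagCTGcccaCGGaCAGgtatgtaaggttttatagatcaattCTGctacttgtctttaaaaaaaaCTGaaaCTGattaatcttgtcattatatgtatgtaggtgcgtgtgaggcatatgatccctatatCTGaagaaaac
AT3G30823, chr3:12562100-12562349, minus strand: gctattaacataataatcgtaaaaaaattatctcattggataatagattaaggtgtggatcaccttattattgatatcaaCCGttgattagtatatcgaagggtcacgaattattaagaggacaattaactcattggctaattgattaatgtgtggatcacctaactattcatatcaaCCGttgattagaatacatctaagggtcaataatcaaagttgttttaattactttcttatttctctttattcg
AT3G29080, chr3:11069102-11069351, plus strand: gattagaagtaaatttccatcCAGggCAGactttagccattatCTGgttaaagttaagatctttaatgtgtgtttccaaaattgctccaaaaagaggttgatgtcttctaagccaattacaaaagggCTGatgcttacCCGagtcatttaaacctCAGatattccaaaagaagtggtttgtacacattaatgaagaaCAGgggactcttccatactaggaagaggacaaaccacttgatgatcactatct
Matches to the CHG context numbered 4 before QQS, 11 before AT5G28235, 2 before AT3G30823 and 7 before AT3G29080. As many or more were found in 67.2%, 8.68%, 91.2% and 31.3% of all 27444 such stretches for the same 4 genes in that order. At least 1 match was present before 96% of the window genes, against 97.8% of the genes outside, and the median was 5 in both. Listed TEs or TE genes overlapped the stretches of QQS, AT3G30823 and AT3G29080, and none overlapped that of AT5G28235. A TE overlapped this stretch in 732 of the window genes (40.5%), against 3318 of the genes outside (12.9%).

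Most window genes were near silent in these seedlings. Of the 1809, 888 (49.1%) reached 0.5 TPM in at least 2 of the 12 libraries and entered the tests, against 19972 of 25635 genes outside (77.9%). In all 12 libraries 696 window genes were listed at 0. Over the tested genes the median of the mean level was close, at 11.4 TPM in the windows, against 12.5 TPM outside. The window genes were shorter, with a median of 1589 bases, against 2101 bases outside. A listed TE or TE gene overlapped 678 of them (37.5%), against 3405 genes outside (13.3%). The median distance to the nearest TE was 102 bases in the windows, against 2731 bases outside. Products named uncharacterized or hypothetical protein belonged to 429 window genes (23.7%), against 2290 genes outside (8.93%). A transposon or retrotransposon word stood in the product of 35 window genes (1.93%), of which 2 were tested, against 72 genes outside (0.281%).

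Within the windows the quiet genes lay closest to the centre. In the inner part of each window, nearer to the centre than to the edge, 139 of 459 genes were tested (30.3%), against 749 of 1350 in the outer part (55.5%). The share tested was 22.9% of the 188 genes within 0.5 Mb of a window's centre and 82.7% of the 9125 genes more than 10 Mb away, and TE overlap was most frequent between 0.5 and 1 Mb, at 44.8%. By chromosome, the tested share was lowest in the windows of chromosome 2 (40.5%) and chromosome 3 (42.9%) and highest in that of chromosome 4 (62.1%). The chromosome 2 window includes 124 genes with identifiers starting AT2G07, the range of a mitochondrial insertion described below, and 20 of these were tested.

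**Figure D1:**
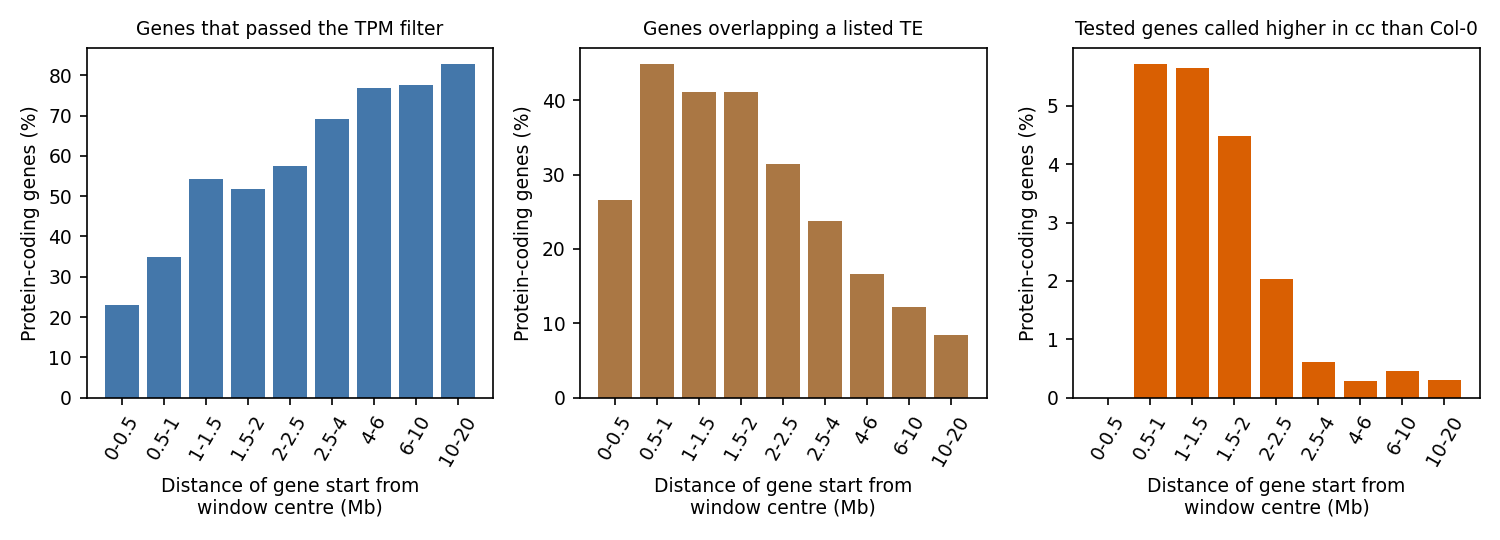
Protein-coding genes by distance of their start from the centre of the window on their chromosome (x axis, Mb), with the share that passed the TPM filter, the share that overlaps a listed TE or TE gene, and the share of tested genes called higher in cc against Col-0 (y axes, %). The tested share is lowest in the bin within 0.5 Mb (22.9%), and the share called higher in cc is highest between 0.5 and 1.5 Mb, at 5.71% and 5.64%.

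The level of the whole set was carried by a few photosynthesis genes and varied little between libraries. Window genes took 5.60% to 5.71% of all TPM in the V1200R/cc libraries, 5.76% to 5.91% in CMT2/cc, 5.75% and 5.81% in cc, and 5.85% and 6.03% in Col-0, and the 10 highest genes of each library held 43.8% to 47.5% of that. The most abundant were the light-harvesting genes LHCB2.2 (AT2G05070), with 4864 to 6426 TPM, and LHCB2.1 (AT2G05100), with 4449 to 5645 TPM. These are near-identical copies, so the split of reads between them is uncertain. PSBX (AT2G06520), a small subunit of photosystem II, had 2629.5 to 3377 TPM. NPQ4 (AT1G44575), the PsbS protein of photoprotection, had 2138 to 2718 TPM, and GAPB (AT1G42970), a Calvin cycle dehydrogenase, had 1689 to 2335 TPM. None of the 5 was called in any of the 6 comparisons by the limma test, where a call also needed a minimum fold change, given below.

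The gene lists drawn up for these windows held few calls, as did all tested features, of which 0.191% to 2.29% were called in 1 direction in a comparison of the 6. A gene was called where limma gave an adjusted p below 0.05 over all 23614 tested features and the log2 fold change was 1 or more in size on the log2(TPM + 0.5) scale, which understates the change of low genes. Of 19 photosynthesis and chloroplast genes, all tested, only RbcX1 (AT4G04330), a Rubisco assembly chaperone, was called, and only in CMT2/cc line 1 against cc. The list's median log2 fold change lay between -0.19 and 0.08 over the 6 comparisons, beside -0.05 to 0.02 for all tested features. In V1200R/cc against CMT2/cc, 12 of the 19 had an unadjusted limma p below 0.05, and 3 to 8 did in the other comparisons. GAPB, NPQ4 and PSBX had log2 fold changes of -0.34, -0.27 and -0.26 there (limma adjusted p = 0.00032, 0.00045 and 0.0011), under the fold needed for a call. LHCB2.2 and LHCB2.1 did not pass (0.10 and 0.08, adjusted p = 0.17 and 0.23). None of 10 housekeeping and proteostasis genes was called, among them the polyubiquitin genes UBQ10 (1485 to 1984 TPM) and UBQ11 (458 to 671 TPM) and the ribosomal protein gene RP1 (501 to 701 TPM). None of 22 tested stress, immunity and hormone genes was called, including RD21A, a cysteine protease (467 to 618 TPM), NIT1, a nitrilase (531 to 685 TPM), and ERD5, a proline dehydrogenase of mitochondria (62.7 to 99.0 TPM). In those 2 lists the limma median over the 6 comparisons stayed between -0.07 and 0.08, and 0 to 3 of the 10 and 2 to 10 of the 22 had an unadjusted p below 0.05 in a comparison. The stress, immunity and hormone list does not hold every window gene of these kinds. ACS11, which makes the precursor of ethylene, is not in it and was called higher in both V1200R/cc lines than in cc, as described below. Of 11 tested calcium-dependent and receptor-like kinase genes, CRK40 and CRK37 were called, while CDPK2 (30.3 to 36.9 TPM), CPK21 (27.2 to 34.2 TPM) and CPK23 (11.7 to 18.8 TPM) were not. Of 5 tested genes for DNA methylation, RNA silencing and chromatin, MRU1 was called. DCL3, the Dicer that makes the small RNAs of RNA-directed DNA methylation, had 2.51 to 3.55 TPM, ORTHL, an ORTHRUS-like gene, 2.39 to 4.61 TPM, and AT5G35910, whose product has a ribonuclease H fold, 14.6 to 20.1 TPM, with no call.

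Chromosome 2 carries a large insertion of mitochondrial DNA in its window. All 124 genes with identifiers starting AT2G07 lay in the window, a range that covers the insertion and genes beside it, 20 of them were tested, and none was called in any comparison by limma, with 2 to 5 at an unadjusted p below 0.05. They summed to 170 to 214 TPM in a library, led by genes of known nuclear function such as CAS1 (AT2G07050), the cycloartenol synthase of sterol synthesis (50.8 to 62.6 TPM), PFD1 (AT2G07340), a prefoldin (25.5 to 43.2 TPM), and AT2G07360, an SH3 domain protein (29.0 to 35.0 TPM).

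In cc a small group of window genes was higher than in Col-0, and 24 of its 34 members were under 0.1 TPM in both Col-0 libraries. In cc against Col-0, limma called 34 of the 888 tested window genes higher (3.83%), beside 80 of 19972 tested genes outside (0.401%) and 1.82% of all tested features. As a share of every member, tested or not, this was 1.88% in the windows, against 0.312% outside, and the windows held 29.8% of the protein-coding genes called higher. Only 4 window genes were called lower (0.45%), beside 23 outside (0.115%) and 0.195% of all tested features. The median log2 fold change was 0.03 in the windows, against 0.02 outside. Of the 34, 16 had passed the filter through the cc libraries alone and had to differ between these groups, as had 23 of the 80 outside. Among genes that reached 0.5 TPM in another library too, 18 of 871 window genes (2.07%) and 57 of 19944 outside (0.286%) were called higher. With no filter on low values, limma called 29 of all 1809 window genes, against 59 of 25635 outside. With 1 cc library left out, the 16 window genes that had passed through cc alone could not pass the filter and were not tested. Part of the fall in the count without a cc library was therefore fixed in advance. The count was 9 without cc replicate 1, 12 without cc replicate 2, 18 without Col-0 replicate 1 and 19 without Col-0 replicate 2, and the count of genes called lower was 2, 5, 1 and 1 without the same libraries in that order.

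**Figure D2:**
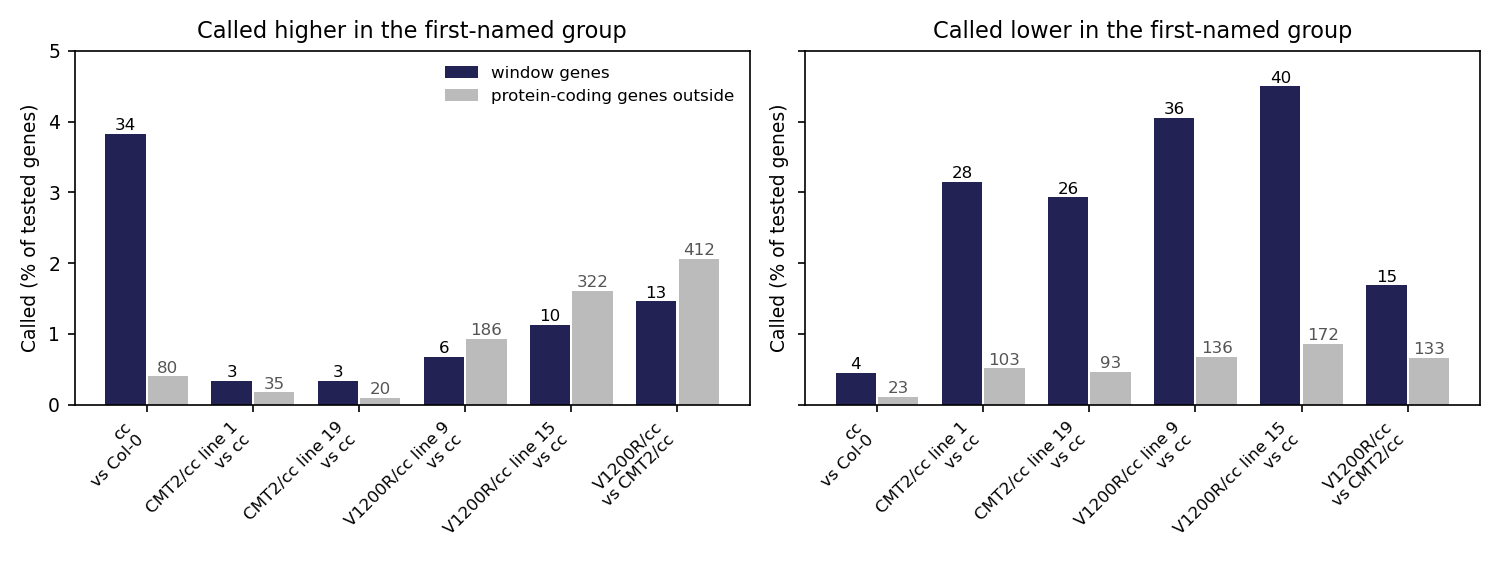
Share of tested genes called by limma (y axis, % of tested genes) in each of the 6 comparisons, for window genes (dark bars) and protein-coding genes outside (grey bars), called higher in the left panel and lower in the right panel, with the number of genes above each bar. The window share stands above the outside share for genes higher in cc (3.83%, against 0.401%) and for genes lower in each line than in cc, and below it for genes higher in V1200R/cc. The bars include genes that passed the filter through the cc libraries alone, which had to lie below cc in the other groups.

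The 34 genes were spread over all 5 windows, with 7, 5, 10, 5 and 7 on chromosomes 1 to 5. The share of tested genes was 7.14% in the window of chromosome 3 and between 2.87% and 3.47% in the other 4. In the inner part of the windows 9 of 139 tested genes (6.47%) were called, against 25 of 749 (3.34%) in the outer part. None of the 43 tested genes within 0.5 Mb of a centre was called. The called share was 5.71% of 70 genes between 0.5 and 1 Mb and 0.305% of 7547 genes more than 10 Mb away. The product was uncharacterized or hypothetical protein for 19 of the 34 (55.9%), against 12.5% of all tested window genes. Most were weakly expressed even in cc, with 25 of the 34 under 5 TPM in both cc libraries.

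Of tested window genes that overlap a listed TE or TE gene, 14 of 340 (4.12%) were called higher in cc, and of those that overlap none, 20 of 548 (3.65%). Outside the windows the shares were 24 of 2495 (0.962%) with an overlap and 56 of 17477 (0.32%) without. Some TE lay within 1000 bases of 29 of the 34 genes and of 729 of the 854 other tested window genes. A TE or TE gene that was itself called higher in cc lay within 1000 bases of 6 of the 34 (17.6%), against 13 of the 854 (1.52%). Since the files count overlapping features separately and the handling of strand and of reads that map to several places is not given in the sources used here, reads of a gene and of the TE beside it may be shared.

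Summed over the 34 genes, the level was 31.6 to 34.2 TPM in the V1200R/cc libraries, 65.8 to 80.8 TPM in CMT2/cc, 212 and 202 TPM in cc, and 23.7 and 23.5 TPM in Col-0. The cc and Col-0 values follow from how the genes were chosen, and the lines entered the choice through the filter and the shared estimate of spread. The V1200R/cc sums did not overlap those of CMT2/cc. Single genes weighed on the sums in opposite ways, since QQS averaged 14.7 TPM in V1200R/cc, with 0 listed for Col-0, while AT5G35480 averaged 2.75 TPM in V1200R/cc and 12.2 TPM in Col-0. Of the 34, 24 were under 0.5 TPM in all 4 V1200R/cc libraries and 17 in all 4 CMT2/cc libraries. The comparisons of the lines with cc share the cc libraries with this one, so a call lower than cc is not independent of the call in cc. Such calls numbered 31 in each V1200R/cc line, 23 in CMT2/cc line 1 and 22 in line 19. All 4 lines were called lower than cc for 21 genes, both V1200R/cc lines but neither CMT2/cc line for 6, both V1200R/cc lines and 1 CMT2/cc line for 3, and no line for 2. The 16 genes that passed the filter through cc alone had to lie below cc in the lines. Of the other 18, limma called 15 lower than cc in each V1200R/cc line, 7 in CMT2/cc line 1, 6 in line 19 and 5 in all 4 lines.

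**Figure D3:**
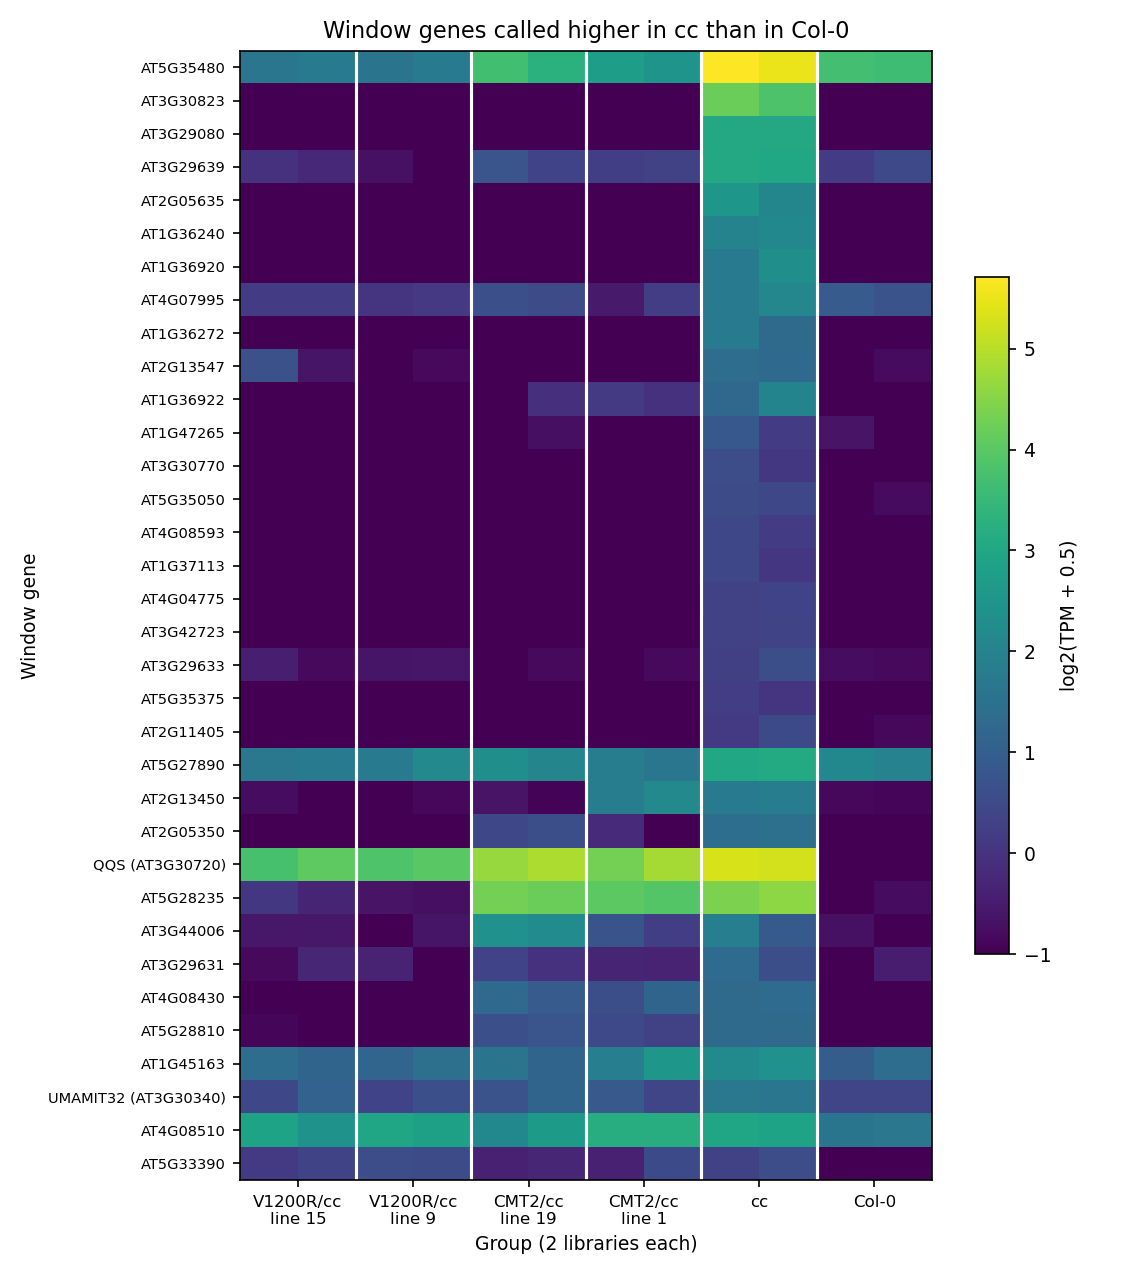
Levels of the 34 window genes called higher in cc against Col-0 (rows) in the 12 libraries (columns, grouped by line), on the log2(TPM + 0.5) scale, ordered by the number of lines called lower than cc. In the 21 upper rows cc is above every other group, with AT5G35480, AT3G29639 and AT4G07995 also visible in Col-0 and the lines, while QQS, AT5G28235, AT3G44006, AT4G08430 and AT5G28810 stay bright in CMT2/cc, and AT4G08510 and AT5G33390 in all 4 lines.

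The largest class was detected in cc alone or nearly so. AT3G30823, an uncharacterized gene whose printed upstream stretch overlaps TEs, had 18.0 and 13.8 TPM in cc, with 0 listed in the other 10 libraries. AT3G29080, uncharacterized, had 7.80 and 7.79 TPM in cc, with 0 in the other 10. AT2G05635, annotated as a DNA repair helicase of the RAD3/XP-D subfamily, had 5.35 and 3.75 TPM in cc, with 0 elsewhere. AT1G36240, of the ribosomal protein L7Ae/L30e family, had 3.51 and 3.89 TPM in cc and 0 elsewhere. In all, 12 of the 34 were listed at 0 in every library other than cc, and since they passed the filter through cc alone and TPM carries no read counts, no fold or p is given for them. AT3G29639, uncharacterized, was detected in Col-0 too, with 7.75 and 7.66 TPM in cc and 0.617 and 0.890 TPM in Col-0 (log2 fold change 2.72 ± 0.22, limma adjusted p = 8.7e-05). In the lines it had 0.112, 0, 0.478 and 0.336 TPM in V1200R/cc and 0.691, 0.746, 1.20 and 0.781 TPM in CMT2/cc, so that all 4 V1200R/cc libraries lay below Col-0.

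A few of these genes were neighbours. AT1G36920 and AT1G36922, both uncharacterized, lie 151 bases apart on chromosome 1. AT1G36920 had 2.93 and 4.54 TPM in cc, with 0 elsewhere. AT1G36922 had 1.89 and 3.62 TPM in cc, 0 in V1200R/cc and in Col-0, and 0.595, 0.471, 0 and 0.457 TPM in CMT2/cc. On chromosome 3, AT3G29633, AT3G29631 and AT3G29639 follow each other with gaps of 16845 and 7811 bases, and in all 7 of the 34 genes lay within 20000 bases of another.

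A second class stayed high in CMT2/cc and was low in V1200R/cc, and its clearest members code for Ulp1 protease family proteins, named for similarity to the protease that matures and removes SUMO in yeast. The windows hold 6 genes with this product and the rest of the genome 1, 3 of the 6 were tested, and all 3 belong to the 34. AT5G28235 (chr5:10201271-10203335, minus strand) had 0.134 and 0.110 TPM in V1200R/cc line 9 and 0.554 and 0.311 TPM in line 15. In CMT2/cc it had 15.7 and 14.6 TPM in line 1 and 19.2 and 17.9 TPM in line 19, beside 20.5 and 23.2 TPM in cc and 0 and 0.0801 TPM in Col-0. The V1200R/cc libraries were thus near Col-0 and the CMT2/cc libraries near cc, with no overlap between the constructs (V1200R/cc against CMT2/cc, log2 fold change -4.51 ± 0.17, limma adjusted p = 3.7e-08). The 2 CMT2/cc lines were not called against cc, with log2 fold changes of -0.51 ± 0.16 and -0.23 ± 0.16 (limma adjusted p = 0.13 and 0.58).

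The other 2 Ulp1 genes followed the same order at lower levels. AT4G08430 was listed at 0 in all 4 V1200R/cc libraries and in Col-0, and had 1.03, 1.72, 1.94 and 1.41 TPM in CMT2/cc and 2.01 and 2.05 TPM in cc (V1200R/cc against CMT2/cc, limma adjusted p = 8.3e-06). AT5G28810 had 0, 0, 0.0468 and 0 TPM in V1200R/cc, 0.889, 0.763, 1.07 and 1.22 TPM in CMT2/cc, 1.98 and 2 TPM in cc and 0 in Col-0 (limma adjusted p = 2.8e-05 for V1200R/cc against CMT2/cc). AT3G44006, uncharacterized, had 0, 0.152, 0.171 and 0.180 TPM in V1200R/cc, 1.18, 0.695, 4.77 and 4.26 TPM in CMT2/cc, 3.19 and 1.35 TPM in cc and 0.120 and 0 TPM in Col-0. Its 4 V1200R/cc libraries lay below every CMT2/cc library, while the 2 CMT2/cc lines stood on either side of cc. All 4 V1200R/cc libraries were below all 4 CMT2/cc libraries for 7 of the 34 genes and for 153 of the 888 tested window genes, so this order was not particular to the 34. The reverse held for 0 of the 34 and is not given here for the 888 or for all tested features. Against CMT2/cc, limma called V1200R/cc lower for 5 of the 34 and higher for 0, where 0.961% of all tested features were called lower.

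QQS (AT3G30720, chr3:12349047-12349933, plus strand), an orphan gene that acts on starch content, was the window gene with the largest fitted rise in cc and sat between the classes. It had 14.1 and 15.4 TPM in V1200R/cc line 9, 13.1 and 16.0 TPM in line 15, 19.3 and 27.5 TPM in CMT2/cc line 1, 25.1 and 29.1 TPM in line 19, and 38.9 and 38.0 TPM in cc, and it was listed at 0 in both Col-0 libraries. Every V1200R/cc library lay below every CMT2/cc library and every one of these below cc, and none came down to Col-0. Limma gave log2 fold changes against cc of -1.35 ± 0.16 in V1200R/cc line 9 and -1.38 ± 0.16 in line 15 (adjusted p = 0.0007 and 0.00053). Against CMT2/cc, V1200R/cc was 0.75 lower on the log2 scale (SE 0.11, limma adjusted p = 0.00068), which is under the fold needed for a call. A TE that spans the whole gene had 0 to 0.868 TPM in the lines, 0.358 and 0.295 TPM in cc, and 1.01 and 0.716 TPM in Col-0.

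**Figure D4:**
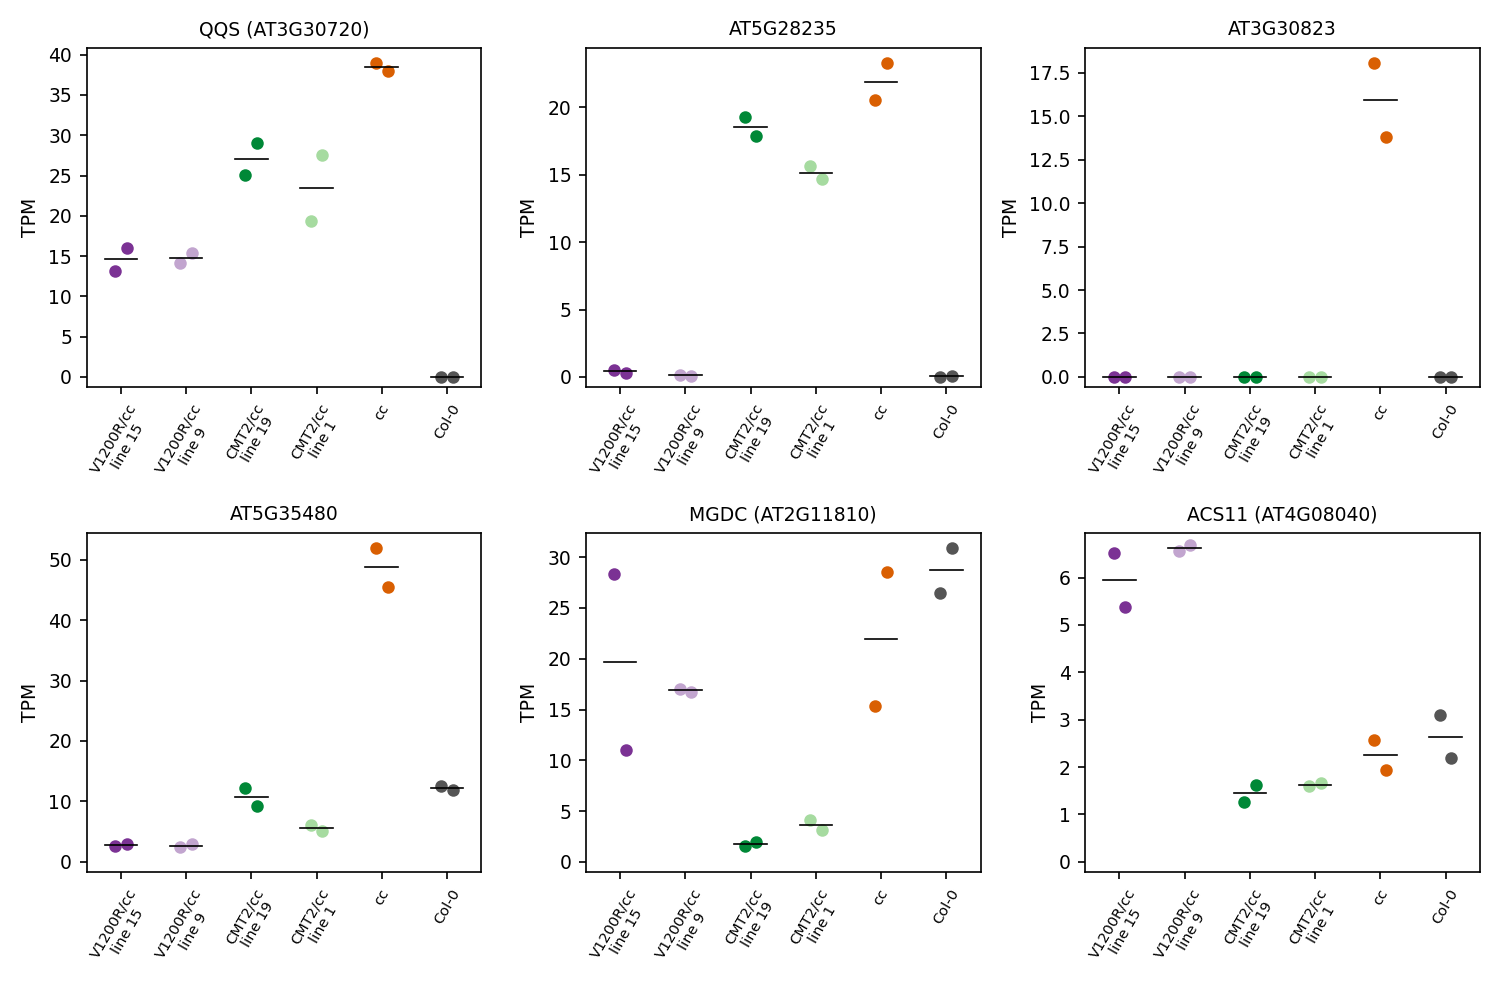
Levels (y axis, TPM) of 6 window genes in the 6 groups (x axis), with a point for each library and a bar at the mean of the 2 libraries. AT3G30823 is detected in cc alone, AT5G28235 is high in cc and CMT2/cc (14.6 to 23.2 TPM), QQS is graded between them, MGDC is low in CMT2/cc alone (1.56 to 4.16 TPM), and ACS11 is highest in V1200R/cc (5.38 to 6.68 TPM).

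AT5G35480 and its neighbour MRU1 (AT5G35490), a methylation-controlled gene, were both expressed in Col-0, and AT5G35480 was among the 34. AT5G35480, uncharacterized, had 2.49 and 2.90 TPM in V1200R/cc line 9, 2.61 and 2.99 TPM in line 15, 6.12 and 5.08 TPM in CMT2/cc line 1, 12.3 and 9.27 TPM in line 19, 52.0 and 45.4 TPM in cc, and 12.5 and 11.8 TPM in Col-0. The V1200R/cc libraries were below all others, including Col-0, and limma called V1200R/cc lower than CMT2/cc (log2 fold change -1.35 ± 0.21, adjusted p = 0.00084). MRU1 was listed at 0 in all 4 V1200R/cc libraries and had 4.19, 3.83, 8.13 and 0 TPM in CMT2/cc, 50.5 and 51.6 TPM in cc and 14.4 and 10.6 TPM in Col-0. Its limma call was lower than cc in V1200R/cc and in CMT2/cc line 19, and its difference between cc and Col-0 was not called (log2 fold change 2.01 ± 0.97, adjusted p = 0.32). The spread is estimated over all groups, so the 8.13 and 0 TPM of CMT2/cc line 19 widened this SE. An entry of 0 can be a failed estimate, so the result does not show that MRU1 was unchanged in cc. The line 19 call has the same limit.

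Not all of the 34 came down in the lines. AT4G08510, annotated as a mediator of RNA polymerase II transcription subunit-like protein, had 7.29, 6.51, 7 and 4.86 TPM in V1200R/cc, 8.62, 8.53, 3.91 and 5.76 TPM in CMT2/cc, 7.21 and 6.97 TPM in cc and 2.58 and 2.67 TPM in Col-0. Every library with a cc background was above Col-0. A listed TE within 1000 bases of this gene, AT4TE22600, went the other way, with 2.19 and 1.94 TPM in Col-0. It had 0.145 and 0.447 TPM in cc and 0.0245 to 1.16 TPM in the lines. Whether reads moved between gene and TE was not tested. AT5G33390, a glycine-rich protein gene, had 0.267 to 1.01 TPM in the 10 libraries other than Col-0, where it was listed at 0. AT2G13450, annotated as a Ta11-like non-LTR retrotransposon, differed between the 2 lines of 1 construct, where limma called 0.106% of all tested features higher in line 19 and 0.0678% lower. It had 0.135 and 0.0213 TPM in CMT2/cc line 19, 3.08 and 3.93 TPM in CMT2/cc line 1, 2.87 and 3 TPM in cc, and at most 0.0802 TPM in V1200R/cc and in Col-0 (line 19 against line 1, log2 fold change -2.79 ± 0.22, limma adjusted p = 0.00047). Between the V1200R/cc lines 0 window genes were called by limma, with 62 of 888 at an unadjusted p below 0.05, where 0.00847% of all tested features were higher in line 15 than in line 9 and 0.0127% lower.

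For the 6 genes with a TE called higher in cc beside them, the TE was high in the groups where the gene was. Gene and TE were both chosen as higher in cc than in Col-0, so only the lines could have differed. For AT3G29080 and AT2G11405 the lines were not free either. There gene and TE had both passed the filter through cc alone and had to lie below cc in the lines. Beside AT5G28235, the element AT5TE37180 had 0.0121 to 0.431 TPM in V1200R/cc, 14.6 to 16.1 TPM in CMT2/cc, 17.0 and 20.6 TPM in cc, and 0 and 0.0595 TPM in Col-0. Beside AT2G13450, the TE gene AT2G13460 was listed at 0 in V1200R/cc, in CMT2/cc line 19 and in Col-0. It had 1.54 and 2.29 TPM in line 1 of CMT2/cc, beside 0.823 and 1.26 TPM in cc. It thus showed the same split between the CMT2/cc lines. Beside AT2G11405, the TE gene AT2G11410 had 1.16 and 0.873 TPM in cc and at most 0.0313 TPM elsewhere. Beside AT5G35480, the element AT5TE48725 had 0.173 to 0.341 TPM in V1200R/cc, 0.168 to 1.04 TPM in CMT2/cc, 5.68 and 4.51 TPM in cc, and 0.398 and 0.887 TPM in Col-0. This element does not overlap AT5G35480 but overlaps MRU1 on the same strand, so its reads may be those of MRU1. Beside AT3G29080, the TE gene AT3G29078, which reaches into the printed stretch, had 12.1 and 11.9 TPM in cc and at most 0.0314 TPM elsewhere. Beside AT4G08430, the element AT4TE22290 had 0 to 0.0471 TPM in V1200R/cc, 3.44 to 4.22 TPM in CMT2/cc, 3.40 and 3.72 TPM in cc and 0 in Col-0. Shared reads between gene and TE were not tested.

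**Figure D5:**
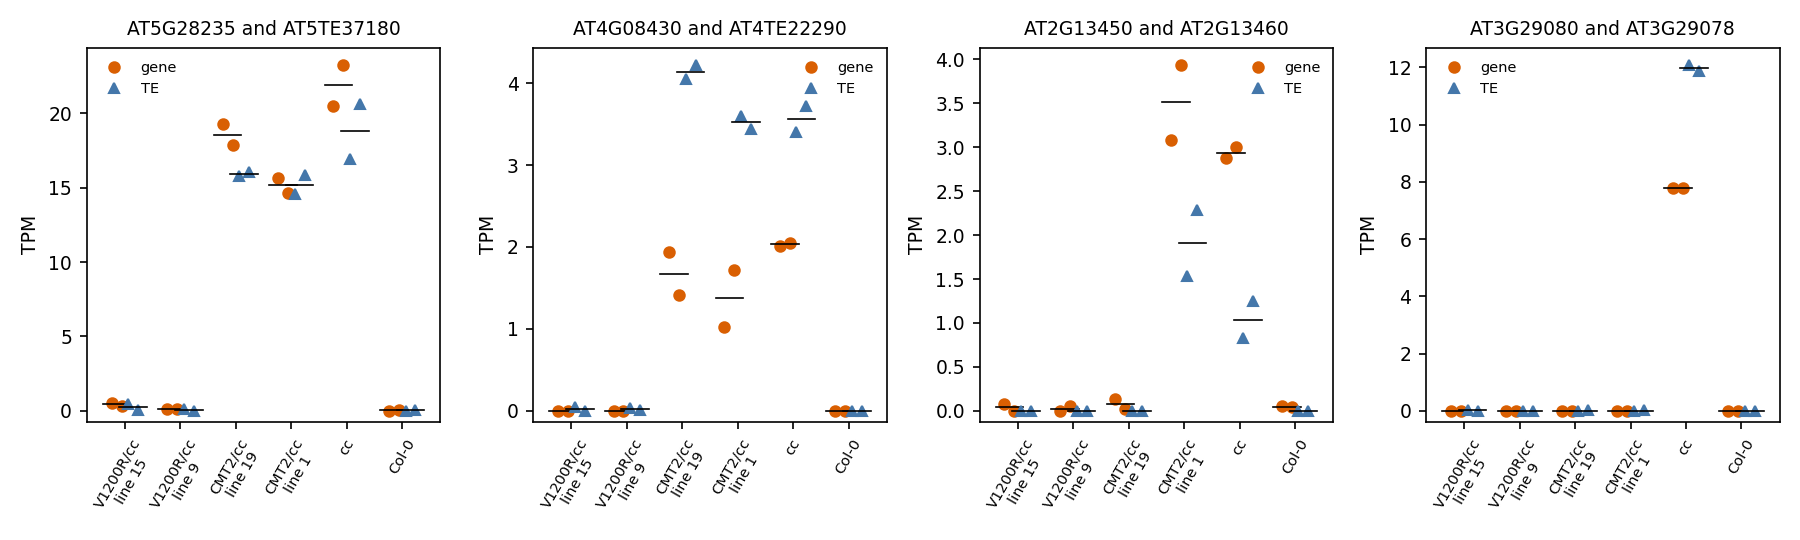
Levels (y axis, TPM) of 4 window genes (circles) and of a listed TE or TE gene within 1000 bases of each (triangles) in the 6 groups (x axis), a point for each library and a bar at the mean of the 2. Gene and TE are high in the same groups, including CMT2/cc line 1 but not line 19 for AT2G13450 and AT2G13460. Their agreement in cc and Col-0 follows from how they were chosen. A gene or TE that passed the filter through cc alone also had to lie below cc in the lines.

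The 4 window genes called lower in cc than in Col-0 were AT3G29410, CYP716A1, CRK40 and AT1G45165. AT3G29410, a terpenoid cyclase family gene, had 1.29 and 1.29 TPM in cc, against 3.12 and 3.12 TPM in Col-0 (log2 fold change -1.02 ± 0.18, limma adjusted p = 0.012). CYP716A1 (AT5G36110), a cytochrome P450, had 0.291 and 0.484 TPM in cc, against 1.3 and 1.34 TPM in Col-0 (-1.05 ± 0.23, adjusted p = 0.033). CRK40 (AT4G04570), a cysteine-rich receptor-like kinase, had 19.3 to 30.7 TPM in the 4 lines and 15.2 and 9.40 TPM in cc, against 28.1 and 21.4 TPM in Col-0. Its cc libraries were below the other 10. AT1G45165, uncharacterized, read 0 in cc and in CMT2/cc line 1, each library, and had 2.12 to 3.73 TPM in the other 8. It overlaps AT1G45163, another uncharacterized gene on the opposite strand that was called higher in cc, and the 2 genes summed to 4.11 and 4.74 TPM in cc, against 3.64 and 5.26 TPM in Col-0. The sums overlapped, so the opposite calls of these 2 genes did not appear in their joint level.

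Other zeros in the files could not be read as silence either. AT5G28450, a chlorophyll a/b binding family gene, was listed at 0 in 3 libraries, V1200R/cc line 9 replicate 2, V1200R/cc line 15 replicate 1 and CMT2/cc line 1 replicate 1, and had 697 to 819 TPM in the other 9. RGF4 (AT3G30350), a root meristem growth factor peptide gene, was listed at 0 in 3 of the 4 V1200R/cc libraries and in 1 cc library, and had 2.07 to 3.33 TPM in the other 8. Against CMT2/cc, limma called RGF4 lower in V1200R/cc (adjusted p = 0.035). Of the window genes, 5 had 0 in some library and at least 20 TPM in another, QQS, AT5G28235, MRU1 and AT5G28450 among them.

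Against cc, the share of genes called lower was above the share outside in every line, while few window genes were called higher. The differences between these shares were not tested. Of the 888 tested window genes, 17 had passed the filter through the cc libraries alone, and of the 19972 outside, 28. Such genes had to lie below cc in every line, and the shares given here include them. In V1200R/cc line 9, limma called 36 window genes lower (4.05%), beside 136 outside (0.681%) and 2.08% of all tested features, and 6 higher (0.676%), beside 186 outside (0.931%) and 0.932% of all tested features. In V1200R/cc line 15 it called 40 lower (4.5%), beside 172 outside (0.861%) and 2.29% of all tested features, and 10 higher (1.13%), beside 322 outside (1.61%) and 1.56% of all tested features. In CMT2/cc line 1 it called 28 lower (3.15%), beside 103 outside (0.516%) and 1.67% of all tested features, and 3 higher (0.338%), beside 35 outside (0.175%) and 0.296% of all tested features. In CMT2/cc line 19 it called 26 lower (2.93%), beside 93 outside (0.466%) and 1.52% of all tested features, and 3 higher (0.338%), beside 20 outside (0.1%) and 0.191% of all tested features. The window medians were -0.06 in both V1200R/cc lines and -0.02 in both CMT2/cc lines. Once a cc library was left out, the 17 window genes that had passed through cc alone could not be tested. Part of the fall in the counts of genes called lower was therefore fixed in advance. Without cc replicate 1 they were 17, 15, 9 and 8 in V1200R/cc lines 9 and 15 and CMT2/cc lines 1 and 19, and without cc replicate 2 they were 19, 19, 6 and 5. Leaving out replicate 1 or 2 of the line itself gave 14 and 15 for line 1 of CMT2/cc and 15 and 14 for line 19. The counts of genes called higher fell in CMT2/cc line 1 to 1 without cc replicate 1, 1 without the line's replicate 1 and 0 without its replicate 2, and in V1200R/cc line 15 to 6 without its replicate 1.

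Both V1200R/cc lines were called lower than cc for 34 window genes, and 4 of these were not called in cc against Col-0. They were MRU1, with the limit of its SE given above, and 3 genes named after their values were seen. AT4G05095, annotated as a non-LTR retroelement reverse transcriptase, had 0.354, 0.257, 0.231 and 0 TPM in V1200R/cc, 3.04, 1.16, 1.93 and 2.14 TPM in CMT2/cc, 3.14 and 3.94 TPM in cc, and 1.07 and 1.26 TPM in Col-0. AT3G42725, a putative membrane lipoprotein gene, had 0.346 to 1.17 TPM in V1200R/cc, 1.67 to 2.63 TPM in CMT2/cc, 2.35 and 3.83 TPM in cc, and 2.13 and 1.45 TPM in Col-0. AT1G44608, uncharacterized, had 0.587 to 1.19 TPM in V1200R/cc, 1.68 to 3.26 TPM in CMT2/cc, 3.02 and 2.15 TPM in cc, and 1.46 and 2.51 TPM in Col-0. For all 3 the V1200R/cc libraries lay below every other library, Col-0 included.

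The genes called higher in V1200R/cc than in cc were few, with 11 in at least 1 line and 5 in both: AT3G43850, ACS11, CRK40, AT5G27893 and AT1G45165, the last with the limit of its overlap with AT1G45163. ACS11 (AT4G08040), an enzyme that makes the precursor of ethylene, had 6.57 and 6.68 TPM in V1200R/cc line 9, 6.52 and 5.38 TPM in line 15, 1.59, 1.65, 1.27 and 1.62 TPM in CMT2/cc, 2.58 and 1.93 TPM in cc, and 3.10 and 2.18 TPM in Col-0. All V1200R/cc libraries were above all others (V1200R/cc against CMT2/cc, log2 fold change 1.74 ± 0.13, limma adjusted p = 4.6e-06). AT3G43850, uncharacterized, had 6.51, 6.97, 9.62 and 7.46 TPM in V1200R/cc, 2.23 and 2.38 TPM in CMT2/cc line 19, 0 and 0 TPM in CMT2/cc line 1, 1.19 and 3.43 TPM in cc, and 2.13 and 3.43 TPM in Col-0. AT5G27893, uncharacterized, had 0.683 to 1.15 TPM in V1200R/cc, 0.304 to 0.627 TPM in CMT2/cc, 0.117 and 0.0544 TPM in cc, and 0.560 and 0.228 TPM in Col-0. AT3G44120, an F-box gene, was called in line 9 alone, with 4.60 and 3.86 TPM there and 3.04 and 2.99 TPM in line 15, against 1.60 and 1.33 TPM in cc. In line 15 alone limma called AT5G35660, a glycine-rich protein gene with 11.6 and 1.88 TPM there and 0 and 0.611 TPM in line 9, listed at 0 in the other 8 libraries. The seed markers CRA1 and OLE1 summed to 15.8 and 21.8 TPM in line 15, against at most 2.62 TPM in the other 10 libraries. OLE1, with 3.98 and 8.23 TPM of this, is also part of the transgene, so its reads may come from the construct, while CRA1, a seed storage protein, had 11.9 and 13.6 TPM. Their part in the line 15 calls was not tested.

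V1200R/cc against CMT2/cc is the comparison whose difference leaves cc out, although cc and Col-0 entered the estimate of spread. Limma called 13 window genes higher (1.46%), beside 412 outside (2.06%) and 1.98% of all tested features, and 15 lower (1.69%), beside 133 outside (0.666%) and 0.961% of all tested features. The median log2 fold change was -0.04 in the windows, against -0.02 outside. The windows thus held 3.06% of the protein-coding genes called higher and 10.1% of those called lower. Of the 15 genes lower in V1200R/cc, 5 had been called higher in cc, the Ulp1 genes AT5G28235, AT4G08430 and AT5G28810 with AT3G44006 and AT5G35480. MRU1 was another of the 15. CMT2 transcript itself had 112 to 159 TPM in V1200R/cc and 79.6 to 123 TPM in CMT2/cc, and the part of its level in these calls was not tested.

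Several genes differed because CMT2/cc stood apart. MGDC (AT2G11810), a synthase of the chloroplast galactolipid MGDG, had 17.0 and 16.8 TPM in V1200R/cc line 9, 28.3 and 11 TPM in line 15, 4.16 and 3.14 TPM in CMT2/cc line 1, 1.56 and 1.91 TPM in line 19, 15.4 and 28.5 TPM in cc, and 26.5 and 30.9 TPM in Col-0. CMT2/cc was below every other library (V1200R/cc against CMT2/cc, log2 fold change 2.55 ± 0.31, limma adjusted p = 0.00018). AT3G43110, uncharacterized, had 14.9, 16.4, 22.2 and 12.4 TPM in V1200R/cc, 3.99, 4.90, 2.43 and 4.03 TPM in CMT2/cc, 10.5 and 23.0 TPM in cc, and 17.1 and 25.5 TPM in Col-0. The reverse was seen for AT1G47400 and AT1G47395, genes that neighbour each other. AT1G47400 had 0.698, 0.550, 0.0387 and 0.0816 TPM in V1200R/cc, 1.86, 1.64, 2.61 and 2.88 TPM in CMT2/cc, 0.678 and 0.492 TPM in cc, and 0.379 and 0.324 TPM in Col-0. AT1G47395 had 1.00, 0.643, 0.252 and 0.452 TPM in V1200R/cc, 2.07, 4.49, 5.54 and 3.76 TPM in CMT2/cc, 0.969 and 1.31 TPM in cc, and 0.961 and 0.983 TPM in Col-0. The 5 root markers summed to 13.5 to 24.1 TPM in V1200R/cc, 73.9 to 129 TPM in CMT2/cc, 87.2 and 59.2 TPM in cc, and 39.9 and 29.6 TPM in Col-0. IRT1, the iron transporter of the root surface, had 0.787 to 11.6 TPM in V1200R/cc, 57.9 to 118 TPM in CMT2/cc, 73.4 and 47.4 TPM in cc, and 24.5 and 13.9 TPM in Col-0, and the other 4 summed to 11 to 17.3 TPM with overlap between all constructs. The part of root tissue or of IRT1's response in these calls was not tested.

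The genes higher in V1200R/cc against CMT2/cc included a regulator with a known role, CNI1. CNI1 (AT5G27420), a ubiquitin ligase of the carbon and nitrogen response, had 15, 14.2, 25.2 and 19.9 TPM in V1200R/cc, 5.97, 4.93, 3.74 and 4.78 TPM in CMT2/cc, 8.46 and 6.71 TPM in cc, and 9.40 and 4.53 TPM in Col-0 (V1200R/cc against CMT2/cc, log2 fold change 1.81 ± 0.23, limma adjusted p = 0.00023). AT3G29000, a calcium-binding EF-hand gene, had 7.28, 6.47, 14.9 and 10.7 TPM in V1200R/cc, 4.88, 2.59, 2.47 and 3.43 TPM in CMT2/cc, 4.89 and 3.21 TPM in cc, and 5.09 and 2.95 TPM in Col-0. In both genes every V1200R/cc library was above every other library. CRK37 (AT4G04500), a cysteine-rich receptor-like kinase, was lower, with 0 to 0.403 TPM in V1200R/cc and 0.567 to 1.61 TPM in CMT2/cc (limma adjusted p = 0.042). The remaining calls had log2 fold changes between 1.01 and 1.48 for those higher and between -1.83 and -1.04 for those lower.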

How the data were processed

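RNA from whole seedlings was sequenced as poly(A)-selected libraries, 2 per group, with 929.5 to 1453.0 aligned megabases per library. Reads were trimmed (fastp) and mapped to TAIR10 by the authors with HISAT2 2.0.0, then quantified by StringTie, whose coverage signal, FPKM and TPM per feature they deposited. The annotation release, strand setting and treatment of reads with several matches are not given in the sources used here. The deposited coverage gave the depth, FPKM was not used further, and TPM carries no read counts, so an entry of 0 can be a failed estimate. TPM rows with a repeated identifier (4, none in the windows) were summed. Features that reached 0.5 TPM in 2 or more of 12 libraries were tested with limma 3.58.1 (R 4.3.3, trended variance) on log2(TPM + 0.5), over 6 groups, with Benjamini-Hochberg adjustment over all 23614 features. For V1200R/cc against CMT2/cc the fit held all 12 libraries in 4 groups, Col-0, cc, CMT2/cc and V1200R/cc. The 2 lines of a construct were joined there, so its 4 libraries counted as replicates although they came from 2 lines. The members and gene lists were chosen with earlier results of these data known. Named genes were the 4 largest called changes each way per comparison, up to 10 genes called higher in cc and lower in both V1200R/cc lines, the 5 most abundant genes, called list members with up to 3 abundant others, and up to 5 genes called higher in both V1200R/cc lines. Other genes were named after their values were seen. Sequences and product names came from the RefSeq TAIR10.1 genome and annotation, and 432 window genes have a symbol of their own there. Alternatives were another pseudocount, no filter, quantile normalization, a replicate block, features that overlap no other, a separate fit of the groups compared, and each library left out.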

Additional observations from a re-analysis of the deposited data

Results flagged for a closer look

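A single library stood far from the other 3 of its construct in 4 of 28 groups of 4 libraries looked at, by the gap to its nearest neighbour as a share of the whole range, set against Dixon's 95% critical value, which chance passes in about 1 in 20 groups. RGF4 (AT3G30350) had 2.63 TPM in 1 V1200R/cc library and was listed at 0 in the other 3 (share 1.000, which 3 equal values fix, so it does not mark that library as outlying). AT3G44006 was listed at 0 in 1 V1200R/cc library and had 0.152 to 0.180 TPM in the other 3 (0.842). ACS11 (AT4G08040) had 5.38 TPM in 1 V1200R/cc library and 6.52 to 6.68 TPM in the other 3 (0.880), and 1.27 TPM in 1 CMT2/cc library and 1.59 to 1.65 TPM in the other 3 (0.842).

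The 2 CMT2/cc lines, which carry the same construct, differed from each other by the limma test for 3 window genes, 2 higher and 1 lower in line 19, where 0.106% of all tested features were called higher and 0.0678% lower. AT1G45165 was 2.85 higher on the log2 scale in line 19 than in line 1, where it was listed at 0, with 3.73 and 2.58 TPM in line 19 (SE 0.25, adjusted p = 0.00103). Summed with AT1G45163, which it overlaps, the level was 6.25 and 4.33 TPM in line 19, against 3.16 and 5.41 TPM in line 1, so the lines overlapped. AT2G13450 had a log2 fold change of -2.79 in line 19 against line 1 (SE 0.22, adjusted p = 0.00047). AT3G43850 was 2.49 higher in line 19, with 2.23 and 2.38 TPM there and 0 in line 1 (SE 0.35, adjusted p = 0.0305). Between the V1200R/cc lines limma called 0 window genes either way, with 62 of 888 at an unadjusted p below 0.05, where 0.00847% of all tested features were called higher in line 15 and 0.0127% lower.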

How the results depend on the processing

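TPM carries no counts, so the precision of low genes is unknown, and 25 of the 34 genes higher in cc had under 5 TPM there. Of 977 calls of named genes recomputed under the alternatives, 837 kept their call, 140 lost it and 0 changed direction. Counts that moved by over 1.5 times are given here. Without a cc library, genes that had passed the filter through cc alone could not be tested, which lowered the counts higher in cc and lower than cc. Other causes were not tested. With a pseudocount of 1, 20 window genes were higher in cc against Col-0 and 1 was lower, 23 were lower in V1200R/cc line 15 against cc, line 19 of CMT2/cc had 16 such genes, and 9 were lower in V1200R/cc against CMT2/cc. With no filter, 2 were lower in cc, and 1, 3 and 4 higher than cc in CMT2/cc line 1 and V1200R/cc lines 9 and 15. Among features that overlap no other, where fewer genes were tested, 15 were higher and 2 lower in cc, 12 and 13 were lower than cc in CMT2/cc (lines 1 and 19), 17 and 18 in V1200R/cc (lines 9 and 15), 2 and 5 were higher than cc in V1200R/cc (lines 9 and 15) and 1 in CMT2/cc line 1, and V1200R/cc against CMT2/cc gave 6 higher and 5 lower. A separate fit of the groups compared, with fewer libraries, gave 18 higher and 1 lower in cc, 11, 10, 23 and 23 lower than cc in the same 4 lines, 0 and 1 higher in CMT2/cc lines 1 and 19, and 5 higher in V1200R/cc line 15. With each library left out, cc gave 9 to 19 higher and 1 to 5 lower, CMT2/cc line 1 gave 0 to 3 higher and 6 to 15 lower, line 19 gave 2 to 3 higher and 5 to 15 lower, V1200R/cc line 9 gave 4 to 7 higher and 17 to 28 lower, line 15 gave 6 to 12 higher and 15 to 36 lower, and V1200R/cc against CMT2/cc gave 13 to 16 higher and 11 to 18 lower. The window medians moved by more than their spread to -0.013 in cc, 0.028 and 0.022 in CMT2/cc lines 1 and 19 and -0.012 in V1200R/cc line 9 with quantile normalization, and to 0.000 in V1200R/cc lines 9 and 15 and in V1200R/cc against CMT2/cc with no filter, and they ran from -0.005 to 0.059 in cc, -0.026 to -0.006 and -0.055 to 0.001 in CMT2/cc lines 1 and 19, -0.076 to -0.043 and -0.073 to -0.048 in V1200R/cc lines 9 and 15, and -0.059 to -0.033 in V1200R/cc against CMT2/cc with a library left out.

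Replicate numbers did not pair the samples, since libraries of the same number had correlations of deviations from -0.068 to 0.11, with 2 of 15 over 0.1. With the replicate number as a block, the calls higher numbered 32 for cc, 3 for either CMT2/cc line, 7 and 10 for V1200R/cc (lines 9 and 15) and 13 for V1200R/cc against CMT2/cc. The calls lower numbered 5 for cc, 27 and 24 for CMT2/cc (lines 1 and 19), 35 and 38 for V1200R/cc, and 14 for V1200R/cc against CMT2/cc.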
